A study of Mus musculus with 8 samples.

Results

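The 10 genes described here are read-outs of the pericentral zone of the liver lobule and of Wnt signalling in hepatocytes: Glul, Slc1a2, Cyp2e1, Cyp1a2, Lect2, Axin2, Rnf43, Znrf3, Lgr5 and Tbx3. They were chosen by name from the 55401 gene identifiers of the deposited count table, all 10 matched a symbol, and all 10 were among the 17669 genes that passed the filter on low counts. Liver RNA came from NOD Scid Gamma (NSG) mice, an immunodeficient strain, bearing a subcutaneous tumour grown from a human line of colorectal cancer. The 4 Colo201 libraries came from hosts of the line that the series describes as FGF19-Hi, and the 4 HCT116 libraries from hosts of the line described as FGF19-Lo. FGF19 is an intestinal hormone that acts on hepatocytes and represses bile acid synthesis. Each line had 2 libraries labelled Male (Colo201 2L and 2R, HCT116 1L and 1R) and 2 labelled Female (Colo201 4L and 4R, HCT116 3L and 3R). The labels give no age, tumour size or time after implantation. There was no tumour-free host and no change of FGF19 inside a line, so FGF19 and other differences between the tumours cannot be told apart.

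The liver lobule is ordered along the blood stream that runs from the portal tract to the central vein. Endothelial cells of the central vein release Wnt ligands and the R-spondin Rspo3, which stabilise beta-catenin in the nearest hepatocytes. With TCF/LEF factors on DNA, beta-catenin switches on pericentral genes, among them Glul, Slc1a2, Cyp2e1, Cyp1a2, Lect2, Axin2, Lgr5, Rnf43, Znrf3 and Tbx3. Rnf43 and Znrf3 are membrane ubiquitin ligases that remove Frizzled receptors, R-spondins bound to Lgr receptors clear these ligases from the membrane, and Axin2 belongs to the complex that degrades beta-catenin. Other inputs also act on some of these genes, such as the aryl hydrocarbon receptor Ahr on Cyp1a2.

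The libraries held 61347603 to 65457482 estimated counts, and 19370 to 20272 genes had a count above 0. Hepatocyte markers were abundant in all 8 libraries, with a summed level of 142701 to 175449 CPM (counts scaled to the library total) in Colo201 hosts and 116058 to 156759 CPM in HCT116 hosts. Xist, which is X-linked, had 239 to 374 CPM where the label was Male and 0.275 to 0.833 CPM where it was Female. The 4 Y-linked genes examined had at most 0.0764 CPM where the label was Male and at least 8.93 CPM where it was Female. Expression of these genes was thus the reverse of the label in all 8 libraries. The sex label is therefore used here only as a label. A title number stands for 1 line with 1 sex label, and it is not stated if its L and R livers came from different mice. The p-values therefore reflect only how these libraries vary, and that spread may be technical. In bulk liver RNA, fewer cells of a type and less RNA per cell cannot be told apart.

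The promoter windows of the 4 genes that passed the test between the lines are shown because the beta-catenin partners TCF and LEF recognise a core of the letters CTTTGA. The windows are RefSeq's for GRCm38.p6, from 250 bases before to 50 bases after the transcript start, 5′ to 3′ on the gene's strand, with CTTTGA or its reverse complement TCAAAG in capitals. They lie at chr1:153899679-153899978 on the plus strand (Glul), chr2:102706188-102706487 on the plus strand (Slc1a2), chr7:140763569-140763868 on the plus strand (Cyp2e1) and chr13:56548489-56548788 on the minus strand (Lect2).
Glul: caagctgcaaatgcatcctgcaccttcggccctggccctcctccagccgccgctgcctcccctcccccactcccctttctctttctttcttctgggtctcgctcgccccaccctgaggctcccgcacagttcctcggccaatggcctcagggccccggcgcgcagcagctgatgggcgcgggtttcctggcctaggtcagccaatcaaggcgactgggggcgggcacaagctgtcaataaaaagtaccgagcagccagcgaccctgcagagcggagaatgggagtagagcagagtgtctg
Slc1a2: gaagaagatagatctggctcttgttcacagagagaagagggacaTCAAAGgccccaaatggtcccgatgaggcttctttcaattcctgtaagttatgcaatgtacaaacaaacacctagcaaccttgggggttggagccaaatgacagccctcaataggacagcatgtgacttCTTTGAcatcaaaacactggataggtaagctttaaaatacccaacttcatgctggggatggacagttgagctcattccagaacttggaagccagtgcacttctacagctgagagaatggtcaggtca
Cyp2e1: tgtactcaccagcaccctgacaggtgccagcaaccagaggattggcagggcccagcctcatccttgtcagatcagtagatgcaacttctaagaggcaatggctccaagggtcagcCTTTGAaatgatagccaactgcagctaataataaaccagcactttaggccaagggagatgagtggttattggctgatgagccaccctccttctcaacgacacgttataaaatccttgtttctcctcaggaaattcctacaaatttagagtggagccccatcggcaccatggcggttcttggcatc
Lect2: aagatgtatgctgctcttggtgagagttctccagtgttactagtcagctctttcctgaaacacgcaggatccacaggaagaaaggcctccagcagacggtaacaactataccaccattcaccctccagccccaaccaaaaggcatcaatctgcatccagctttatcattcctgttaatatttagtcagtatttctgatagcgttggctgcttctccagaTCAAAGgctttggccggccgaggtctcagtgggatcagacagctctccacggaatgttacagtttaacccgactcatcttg
The core stood at -206 and -77 from the start in Slc1a2, at -135 in Cyp2e1 and at -31 in Lect2, and the Glul window held none. Of the 10 genes 7 had a window in the table, and 4 of these 7 held the core on either strand, the 3 above and Cyp1a2 at -243, while Glul, Axin2 and Rnf43 held none. Over all 32851 windows of this length the share with the core was 16%. The GC content was 64.3% in the Glul window and 70% in that of Axin2, against 45.7 to 49.7% in those of Slc1a2, Cyp2e1, Cyp1a2 and Lect2 and 46.7 and 44.3% in the 2 of Rnf43, which lack the core. The core of the aryl hydrocarbon receptor's element, GCGTG or CACGC, was present in 32.4% of all windows, and among these genes in Lect2 and in 1 of the 2 windows of Rnf43, but not in that of Cyp1a2. The Slc1a2 window lies 47779 bases inside the gene as GENCODE annotates it, so it belongs to an internal start. The Rnf43 window with a GC content of 44.3% lies 37175 bases inside its gene, so it too belongs to an internal start. A match of these letters is a description of the window and not a binding site.

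The comparison of the lines asked which of these genes differed between livers of hosts bearing the 2 tumours. Glul, Slc1a2 and Cyp2e1 fell in Colo201 hosts, Lect2 rose, and the other 6 did not pass an adjusted p of 0.05 (edgeR quasi-likelihood test, Benjamini-Hochberg over all tested genes). Here fell and rose mean lower and higher in Colo201 than in HCT116 hosts, and no tumour-free host shows which side changed. Of all tested genes 2.30% were lower and 2.48% higher in Colo201 hosts by the same test. The 4 Colo201 libraries lay wholly below the 4 HCT116 libraries for Glul, Slc1a2, Cyp2e1 and Cyp1a2, where 6.40% of all tested genes did so, and wholly above for none of the 10, where 5.55% of all tested genes did. The log2 fold change was negative for 8 of the 10, with a median of -0.27, against a median of 0.00 over all tested genes. Together the 10 genes took 0.644 to 0.859% of the counts in Colo201 hosts and 1.01 to 1.23% in HCT116 hosts, most of it from Cyp2e1.

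**Figure D1:**
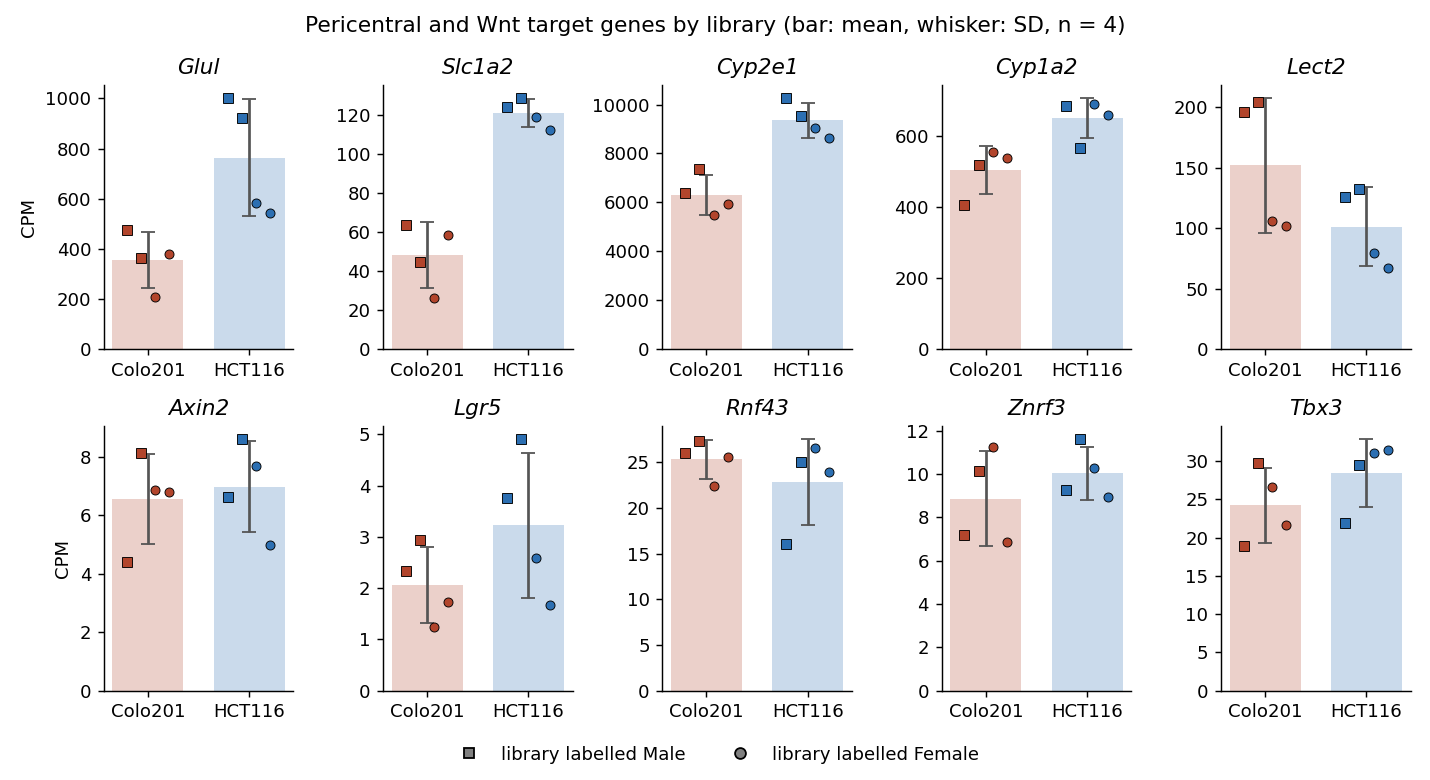
Level of each of the 10 genes in CPM, 1 panel per gene with its own axis from 0, with Colo201 hosts on the left and HCT116 hosts on the right of each panel. Bars are means over 4 libraries, whiskers are SD, and points are libraries, square where labelled Male and round where labelled Female; in Glul, Slc1a2, Cyp2e1 and Cyp1a2 the 4 Colo201 points lie below the 4 HCT116 points.

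Glul encodes glutamine synthetase, which joins ammonia to glutamate and in the liver is held by the innermost ring of hepatocytes around the central vein. The gene (ENSMUSG00000026473) lies on chromosome 1 from 153899944 to 153909723 on the plus strand of GRCm38. Its level was 475, 365, 207 and 378 CPM in Colo201 2L, 2R, 4L and 4R, against 1003, 921, 584 and 544 CPM in HCT116 1L, 1R, 3L and 3R. The highest Colo201 library stayed under the lowest HCT116 library, and within HCT116 the 2 libraries labelled Male stood well above the 2 labelled Female. The means were 356 ± 111 CPM in Colo201 hosts and 763 ± 233 CPM in HCT116 hosts (SD, n = 4 each). Glul fell by 1.04 in log2 units (95% confidence interval -1.46 to -0.61, SE 0.19, adjusted p = 0.0245, edgeR), to a level 51.3% lower in Colo201 hosts. This call depended on single libraries: the adjusted p in edgeR was 0.0560 without Colo201 2R and, with the HCT116 libraries left out in turn, 0.0690 for 1L, 0.0645 for 1R and 0.0715 for 3L, while the log2 fold change stayed between -1.25 and -0.91 over the 8 omissions. Without the sex label in the model the adjusted p was 0.104, and with the libraries of each title number summed 0.123. Exons of Glul share 116 bases with the antisense gene Teddm2, which stood at 0.275 to 2.22 CPM, and 93 bases with Mir8114 on the same strand, which stood at 0.0162 to 15.8 CPM, and the strand setting of the counting is not given in the sources used here.

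Slc1a2 encodes the glutamate transporter GLT-1, which in liver is found in the same perivenous hepatocytes and brings in the glutamate that glutamine synthetase uses. The gene (ENSMUSG00000005089) lies on chromosome 2 from 102658659 to 102790784 on the plus strand. It was at 63.6, 44.9, 26.3 and 58.3 CPM in Colo201 2L, 2R, 4L and 4R, against 124, 129, 119 and 112 CPM in HCT116 1L, 1R, 3L and 3R. The groups did not overlap, the HCT116 libraries were close to each other, and the Colo201 libraries spread widely, with 4L the lowest as for Glul. The means were 48.3 ± 16.6 CPM in Colo201 hosts and 121 ± 7.16 CPM in HCT116 hosts (SD, n = 4 each). Slc1a2 fell by 1.30 in log2 units (95% confidence interval -1.84 to -0.76, SE 0.24, adjusted p = 0.0253, edgeR), the largest of the 10 in size, a level 59.4% lower in Colo201 hosts. Over the 8 omissions of a library the log2 fold change was -1.52 to -1.09, but the call was lost in several. The adjusted p in edgeR rose above 0.05 without Colo201 2R (0.0603), HCT116 1L (0.0628), HCT116 1R (0.0669), HCT116 3L (0.0772) or HCT116 3R (0.0550). It was 0.0527 without the sex label in the model and 0.123 with the libraries of each title number summed.

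Cyp2e1 encodes the ethanol-inducible cytochrome P450 that oxidises small molecules such as ethanol and paracetamol. The gene (ENSMUSG00000025479) lies on chromosome 7 from 140763739 to 140774987 on the plus strand, and it ranked 8 of all tested genes by mean CPM. It was at 6376, 7376, 5473 and 5945 CPM in Colo201 2L, 2R, 4L and 4R, against 10285, 9514, 9039 and 8613 CPM in HCT116 1L, 1R, 3L and 3R. The groups did not overlap, and both were tight. The means were 6292 ± 811 CPM in Colo201 hosts and 9363 ± 716 CPM in HCT116 hosts (SD, n = 4 each), and Cyp2e1 fell by 0.55 in log2 units (SE 0.07, adjusted p = 0.00665, edgeR), a level 31.7% lower in Colo201 hosts. This call was kept in each of the 8 fits that left out a library, with log2 fold changes of -0.59 to -0.52. It was lost with the libraries of each title number summed (adjusted p = 0.132, edgeR). The adjusted p in edgeR was 0.0499 without the sex label in the model, just under the threshold. As a single gene it took 0.547 to 0.738% of all counts in Colo201 hosts and 0.861 to 1.03% in HCT116 hosts.

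Cyp1a2 encodes the P450 that oxidises caffeine and aromatic amines, and it lies (ENSMUSG00000032310) on chromosome 9 from 57676937 to 57683703 on the minus strand. It was at 406, 517, 556 and 540 CPM in Colo201 2L, 2R, 4L and 4R, against 686, 567, 691 and 660 CPM in HCT116 1L, 1R, 3L and 3R. The groups did not overlap, although Colo201 4L at 556 CPM and HCT116 1R at 567 CPM nearly met. The means were 505 ± 67.9 CPM in Colo201 hosts and 651 ± 57.6 CPM in HCT116 hosts (SD, n = 4 each). Its log2 fold change of -0.35 (SE 0.09, 95% confidence interval -0.56 to -0.14) did not pass in edgeR, with an adjusted p of 0.0715, and passed in DESeq2, with an adjusted p of 0.0123.

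Lect2 encodes a secreted protein of hepatocytes with chemotactic activity, and it was the only one of the 10 that passed as higher in Colo201 hosts. The gene (ENSMUSG00000021539) lies on chromosome 13 from 56542464 to 56548502 on the minus strand. It was at 196, 204, 106 and 102 CPM in Colo201 2L, 2R, 4L and 4R, against 126, 132, 79.2 and 67.3 CPM in HCT116 1L, 1R, 3L and 3R. Over all 8 libraries the lines overlapped, because the HCT116 libraries labelled Male stood above the Colo201 libraries labelled Female, but within each sex label both Colo201 libraries stood above both HCT116 libraries. The means were 152 ± 55.7 CPM in Colo201 hosts and 101 ± 32.6 CPM in HCT116 hosts (SD, n = 4 each). In edgeR with the sex label in the model Lect2 rose by 0.60 in log2 units (SE 0.08, adjusted p = 0.00844), or 1.52-fold, and the estimate was 0.58 to 0.65 in the 8 fits without a library, all of which passed. Without the sex label in the model the adjusted p in edgeR was 0.330 at a log2 fold change of 0.62, and with the libraries of each title number summed it was 0.141.

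The feedback regulators of the Wnt pathway gave no call between the lines. Axin2, the gene most widely used as a read-out of beta-catenin activity, was at 4.40, 8.11, 6.87 and 6.80 CPM in Colo201 2L, 2R, 4L and 4R, against 6.62, 8.61, 7.69 and 4.97 CPM in HCT116 1L, 1R, 3L and 3R. The libraries of the lines were interleaved, and the spread within each line was far larger than the difference of the means, 6.55 ± 1.55 CPM in Colo201 hosts and 6.97 ± 1.56 CPM in HCT116 hosts (SD, n = 4 each). On the log2 scale Axin2 differed by -0.06 (95% confidence interval -0.54 to 0.42, SE 0.21, adjusted p = 0.904, edgeR), and it was above 0 in 3 of the 8 fits without a library. The interval covers changes in either direction, and its lower bound lies above the estimate for Glul of -1.04. The difference between these genes was not tested, and the interval treats L and R of a title number as independent.

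Rnf43 was at 26.1, 27.3, 22.4 and 25.6 CPM in Colo201 2L, 2R, 4L and 4R, against 16.01, 25.02, 26.5 and 24.0 CPM in HCT116 1L, 1R, 3L and 3R. The groups overlapped, with HCT116 1L alone standing low, and the log2 fold change was 0.18 (SE 0.16, 95% confidence interval -0.17 to 0.54, adjusted p = 0.550, edgeR). Its partner Znrf3 was at 7.18, 10.2, 11.3 and 6.86 CPM in Colo201 2L, 2R, 4L and 4R, against 9.27, 11.6, 10.3 and 8.93 CPM in HCT116 1L, 1R, 3L and 3R. These also overlapped, at -0.15 on the log2 scale (SE 0.18, 95% confidence interval -0.56 to 0.26, adjusted p = 0.682, edgeR). The means of Rnf43 were 25.3 ± 2.10 CPM in Colo201 hosts and 22.9 ± 4.70 CPM in HCT116 hosts, and those of Znrf3 were 8.87 ± 2.18 CPM in Colo201 hosts and 10.03 ± 1.21 CPM in HCT116 hosts (SD, n = 4 each). All 3 lie on chromosome 11, Axin2 (ENSMUSG00000000142) from 108920349 to 108950783 and Rnf43 (ENSMUSG00000034177) from 87662722 to 87735539 on the plus strand, and Znrf3 (ENSMUSG00000041961) from 5276324 to 5444847 on the minus strand.

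Lgr5, a receptor for R-spondins that marks the hepatocytes next to the central vein, was the least abundant of the 10, with 80 to 311 counts per library. It was at 2.34, 2.93, 1.23 and 1.73 CPM in Colo201 2L, 2R, 4L and 4R, against 3.77, 4.91, 2.58 and 1.66 CPM in HCT116 1L, 1R, 3L and 3R. The libraries labelled Male did not overlap between the lines, and those labelled Female did, through HCT116 3R. The means were 2.06 ± 0.737 CPM in Colo201 hosts and 3.23 ± 1.41 CPM in HCT116 hosts (SD, n = 4 each). Its log2 fold change of -0.59 (SE 0.21, 95% confidence interval -1.07 to -0.10, adjusted p = 0.157, edgeR) was as large in size as that of Cyp2e1 but did not pass. The gene (ENSMUSG00000020140) lies on chromosome 10 from 115450311 to 115587780 on the minus strand.

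Tbx3, a T-box transcription factor expressed under beta-catenin in pericentral hepatocytes, was at 18.9, 29.8, 26.6 and 21.7 CPM in Colo201 2L, 2R, 4L and 4R, against 21.97, 29.4, 31.0 and 31.5 CPM in HCT116 1L, 1R, 3L and 3R. The groups overlapped, and the log2 fold change was -0.20 (SE 0.16, 95% confidence interval -0.56 to 0.15, adjusted p = 0.502, edgeR). The means were 24.2 ± 4.89 CPM in Colo201 hosts and 28.5 ± 4.43 CPM in HCT116 hosts (SD, n = 4 each). The gene (ENSMUSG00000018604) lies on chromosome 5 from 119670669 to 119684724 on the plus strand, and its exons share 115 bases with the antisense gene Tbx3os1, which stood at 0.741 to 10.04 CPM.

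Levels between genes can be set side by side only per length, for which the deposited FPKM were used. Cyp2e1 was far above the rest, at 2654 ± 347 FPKM in Colo201 hosts and 3975 ± 323 FPKM in HCT116 hosts (SD, n = 4 each). Cyp1a2 followed, at 228 ± 29.8 FPKM in Colo201 hosts and 296 ± 25.9 FPKM in HCT116 hosts. The next places were taken by Lect2, at 151 ± 55.7 FPKM in Colo201 hosts and 101 ± 32.9 FPKM in HCT116 hosts, and Glul, at 85.8 ± 27.0 FPKM in Colo201 hosts and 185 ± 57.3 FPKM in HCT116 hosts. Lect2 stood above Glul in each of the 4 Colo201 libraries and below it in each of the 4 HCT116 libraries, although the ranges of the 2 genes overlapped within each line. Slc1a2 (3.35 ± 1.16 FPKM in Colo201 hosts), Rnf43 (3.51 ± 0.301 FPKM) and Tbx3 (3.33 ± 0.667 FPKM) lay together, whereas in HCT116 hosts Slc1a2 at 8.43 ± 0.538 FPKM stood clear of Rnf43 at 3.19 ± 0.649 FPKM and Tbx3 at 3.93 ± 0.598 FPKM. Axin2 and Znrf3 followed near 1 FPKM and overlapped in both lines, and Lgr5 was lowest, at 0.11 to 0.26 FPKM in Colo201 hosts and 0.15 to 0.44 FPKM in HCT116 hosts.

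Within the sex labels, each with 2 libraries per line, none of the 10 genes passed in either label, where 0.232% of all tested genes passed among the libraries labelled Male and 0.492% among those labelled Female (edgeR, a mean for each of the 4 combinations). The direction was nevertheless alike in both labels for the genes that passed overall. The log2 fold change was -1.15 in the libraries labelled Male and -0.93 in those labelled Female for Glul, -1.17 and -1.43 for Slc1a2, -0.49 and -0.61 for Cyp2e1, and 0.68 and 0.53 for Lect2, each pair in that order of labels. Axin2 (-0.26 and 0.14, SE 0.30 each) and Rnf43 (0.42 and -0.06, SE 0.20 each) had estimates of opposite sign in the labels Male and Female. The difference between the labels was tested as an interaction, which called none of the 10 genes and 0.0283% of all tested genes, with unadjusted p of 0.134 to 0.681 for the 10 in edgeR.

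**Figure D2:**
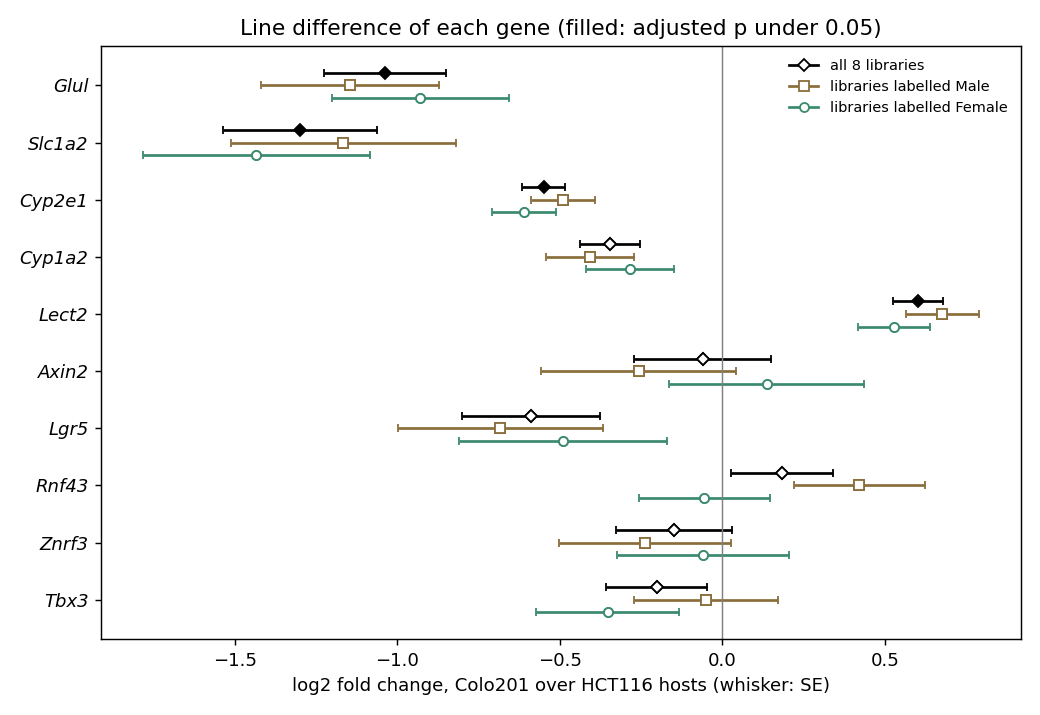
Log2 fold change of each gene, Colo201 over HCT116 hosts, from edgeR, with SE as whiskers: diamonds for all 8 libraries, squares for those labelled Male and circles for those labelled Female. Filled symbols mark an adjusted p under 0.05, which only the diamonds of Glul, Slc1a2, Cyp2e1 and Lect2 reach.

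The comparison of the sex labels, with the line in the model, passed for Lect2 alone among the 10, where 1.96% of all tested genes stood higher with the label Male and 2.06% lower. Lect2 differed by 0.88 in log2 units (SE 0.08, adjusted p = 0.000555, edgeR), and all 4 libraries labelled Male, the lowest at 126 CPM, lay above all 4 labelled Female, the highest at 106 CPM. Lgr5 had a log2 difference of 0.93 between the labels (SE 0.21) that narrowly failed, with an adjusted p of 0.0510 in edgeR, and that narrowly passed with DESeq2's size factors. Glul had one of 0.65 (SE 0.19, adjusted p = 0.0978). Some markers of other cell types moved with the label. Higher with the label Male were 5 of 10 liver endothelium markers and 2 of 10 Kupffer cell markers. None of the 5 central vein endothelium, 8 cholangiocyte and 8 stellate cell markers passed between the labels. The summed liver endothelium level was 334 to 398 CPM with the label Male, against 222 to 293 CPM in the libraries labelled Female. Xist and the Y-linked genes ran opposite to these labels, as given above, so higher with the label Male is not read as higher in males. Each label in a line is also 1 title number, so sex label and title number cannot be told apart. The part of the other cell types was not tested.

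The profiles over the 8 libraries show which genes moved alike. The likeness was measured as the root mean square difference of 2 genes' log2 CPM after each was centred on its mean, so that 0 is the same profile. Among the 10 genes the nearest pair was Znrf3 and Tbx3 at 0.20, and the farthest was Slc1a2 and Lect2 at 1.08. The P450 genes Cyp2e1 and Cyp1a2 stood at 0.24 from each other, and Cyp1a2 stood as near to Tbx3, at 0.24. Glul and Slc1a2 stood at 0.29, and each was the nearest of the 10 to the other. Glul and Lgr5 stood at 0.39 from each other, since both were high in HCT116 1L and 1R and low in Colo201 4L. Flat profiles lie near each other by this measure whatever their course, which applies to Cyp1a2, Rnf43, Znrf3 and Tbx3. Their root mean square differences from their own means were 0.24, 0.23, 0.26 and 0.26 in that order. Cyp1a2 thus stood about as far from Cyp2e1, at 0.24, as from a flat profile.

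**Figure D3:**
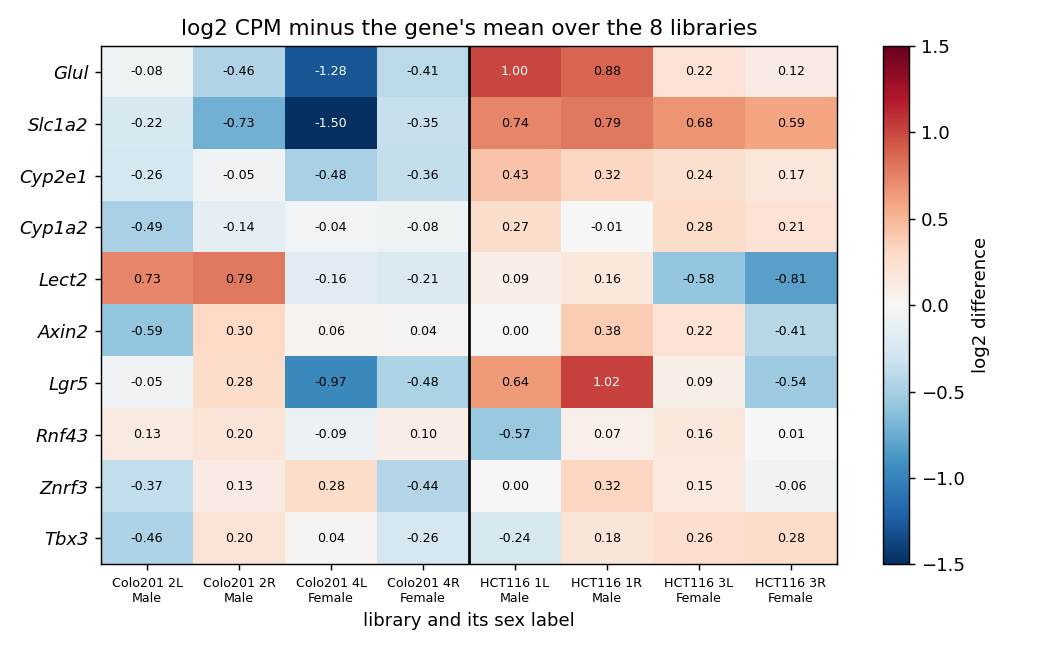
Log2 CPM of each gene minus its mean over the 8 libraries, with Colo201 libraries left and HCT116 libraries right of the line and the sex label under each library; red is above and blue below the gene's mean. Glul and Slc1a2 were lowest in Colo201 4L, Glul at -1.28, and Lect2 was highest in Colo201 2L and 2R, at 0.73 and 0.79.

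Among 12735 other genes with at least 1 CPM on average, the nearest to Glul was Wnt5b at 0.19, where the median gene stood at 0.74. Wnt5b encodes a Wnt ligand that is usually classed as non-canonical. Next came Olfr1372-ps1 (0.24), Pex11a (0.24), which encodes a peroxisomal membrane protein, N4bp2l1 (0.26) and Gm16573 (0.26). The nearest to Lect2 was Slc13a3, a dicarboxylate transporter, at 0.12, where the median gene stood at 0.60. Micall2 (0.17), Pla2g16 (0.18), Evc (0.18) and H2afy2 (0.19) followed. These distances are over 8 libraries that share line, sex label and title number, and they carry no test.

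Ratios of 2 genes within a library do not depend on the scaling of the library. Of the 5 ratios formed, that of Lect2 to Glul lay at 0.270 to 0.559 in Colo201 hosts and at 0.124 to 0.143 in HCT116 hosts by CPM. The groups did not overlap, and the mean log2 ratio differed by 1.68. The two-sided exact permutation p was 0.0286, the smallest that 4 against 4 libraries allow, and 0.143 after adjustment over the 5 ratios. This pair sets the gene that rose against 1 that fell, and it was chosen with earlier results known. Its separation follows from the 2 single results and is no separate support. The permutation also treats L and R of a title number as independent libraries. The ratio of Glul to Slc1a2 was 6.50 to 8.14 in Colo201 hosts and 4.86 to 8.11 in HCT116 hosts, a log2 difference of 0.29 (exact permutation p = 0.229). The ratios of Cyp2e1 to Cyp1a2, Rnf43 to Znrf3 and Axin2 to Lgr5 differed by -0.21, 0.37 and 0.51 on the log2 scale, with exact permutation p of 0.343, 0.200 and 0.314, and overlapped between the lines.

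Other genes with known pericentral expression did not share 1 direction. Of 17 such genes, 5 fell, 3 rose and 9 did not pass, with a median log2 fold change of 0.01, where 2.30% of all tested genes fell and 2.48% rose. The 5 that fell were Nr1i3, the nuclear receptor CAR (-1.28, adjusted p = 0.00930), Cyp27a1, a sterol 27-hydroxylase (-1.14, adjusted p = 0.00665), Por, the electron donor of microsomal P450 enzymes (-0.87, adjusted p = 0.0267), Aldh1a1, a retinal dehydrogenase (-0.63, adjusted p = 0.0199), and Cpox of haem synthesis (-0.50, adjusted p = 0.0452, all edgeR). The 3 that rose were Avpr1a, the vasopressin receptor of hepatocytes (0.71, adjusted p = 0.0108), Slc13a3 (0.62, adjusted p = 0.0188) and Oat, ornithine aminotransferase, which makes glutamate (0.46, adjusted p = 0.0335, all edgeR). The tight junction gene Cldn2 stood at 0.0652 CPM in HCT116 3R, against 53.2 to 128 CPM in the other 7 libraries, and its log2 fold change of 1.19 did not pass (adjusted p = 0.571, edgeR); it is named because of this value, which was seen first. Without HCT116 3R, Glul, Cyp2e1 and Lect2 still passed and Slc1a2 did not.

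Of 12 periportal genes, the opposite zone of the lobule, 3 rose, 1 fell and 8 did not pass, with a median log2 fold change of -0.06, where 2.48% of all tested genes rose and 2.30% fell. Cdh1, which encodes E-cadherin, rose by 1.70 (SE 0.08, adjusted p = 0.000144), Gls2, the liver glutaminase that releases the ammonia from glutamine, by 0.74 (adjusted p = 0.00702) and Hal, histidine ammonia-lyase, by 0.59 (adjusted p = 0.0124), while Pck1 of gluconeogenesis fell by 0.50 on the log2 scale (adjusted p = 0.0396, all edgeR). Gls2 was at 424, 525, 416 and 409 CPM in Colo201 2L, 2R, 4L and 4R, against 335, 312, 231 and 220 CPM in HCT116 1L, 1R, 3L and 3R. Gls2 was thus higher in every Colo201 library and Glul lower in every one, on opposite sides of glutamine turnover. Among 14 tested genes of glutamine and glutamate handling other than Glul and Slc1a2, Gls2 and Oat, both counted above, rose, 12 did not pass, and the median log2 fold change was 0.01.

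The upstream Wnt pathway was read from 3 lists, beside the 2.30% of all tested genes that were lower and the 2.48% that were higher in Colo201 hosts. Of 21 Wnt ligands, R-spondins and ligand processing genes 11 were tested, and Wnt5b alone changed. It was at 2.26, 2.38, 0.941 and 1.93 CPM in Colo201 2L, 2R, 4L and 4R, against 6.45, 5.09, 2.80 and 3.28 CPM in HCT116 1L, 1R, 3L and 3R. This was a fall of 1.17 in log2 units (SE 0.24, adjusted p = 0.0344, edgeR). The central vein ligands Wnt2 (3.16 ± 1.08 CPM in Colo201 hosts and 2.45 ± 0.979 CPM in HCT116 hosts), Wnt9b (0.999 ± 0.487 CPM in Colo201 hosts and 0.794 ± 0.260 CPM in HCT116 hosts) and Rspo3 (4.22 ± 0.420 CPM in Colo201 hosts and 3.86 ± 1.01 CPM in HCT116 hosts) overlapped between the lines (SD, n = 4 each). Their log2 fold changes were 0.44, 0.40 and 0.19 (SE 0.34, 0.44 and 0.18), with adjusted p of 0.505, 0.650 and 0.597 in edgeR.

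Of 17 receptor genes 12 were tested, and Lrp5, a Wnt co-receptor, rose by 0.78 (SE 0.12, adjusted p = 0.0142) while Fzd4, a Frizzled receptor, fell by 0.79 in log2 units (SE 0.13, adjusted p = 0.0184, edgeR). Lrp5 was at 72.7 ± 9.07 CPM in Colo201 hosts and 43.5 ± 5.56 CPM in HCT116 hosts, and Fzd4 at 25.8 ± 4.41 CPM in Colo201 hosts and 45.7 ± 9.31 CPM in HCT116 hosts (SD, n = 4 each), without overlap in either gene. Among 22 tested genes of the beta-catenin cascade only Amer2, which binds the Apc protein, changed, with 0.293 ± 0.139 CPM in Colo201 hosts and 2.43 ± 1.45 CPM in HCT116 hosts (SD, n = 4 each) and a log2 change of -3.01 (adjusted p = 0.0200 in edgeR, SE 0.51). Ctnnb1, which encodes beta-catenin itself and is named for that role, stood at 189 ± 14.8 CPM in Colo201 hosts and 172 ± 24.3 CPM in HCT116 hosts (SD, n = 4 each, log2 fold change 0.16, adjusted p = 0.438, edgeR).

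None of the 13 tested antagonists and further feedback targets passed, and their median log2 fold change was -0.03. The smallest p-values were those of Tnfrsf19 (log2 fold change -0.73, adjusted p = 0.197), Kremen1 (0.15, adjusted p = 0.456) and Myc (-0.75, adjusted p = 0.467, all edgeR). None of the 6 tested target genes of Ahr passed either, with log2 fold changes of 0.25 for Nqo1 (adjusted p = 0.493), 0.79 for Cyp1b1 (adjusted p = 0.499) and -0.26 for Tiparp (adjusted p = 0.667, all edgeR).

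**Figure D4:**
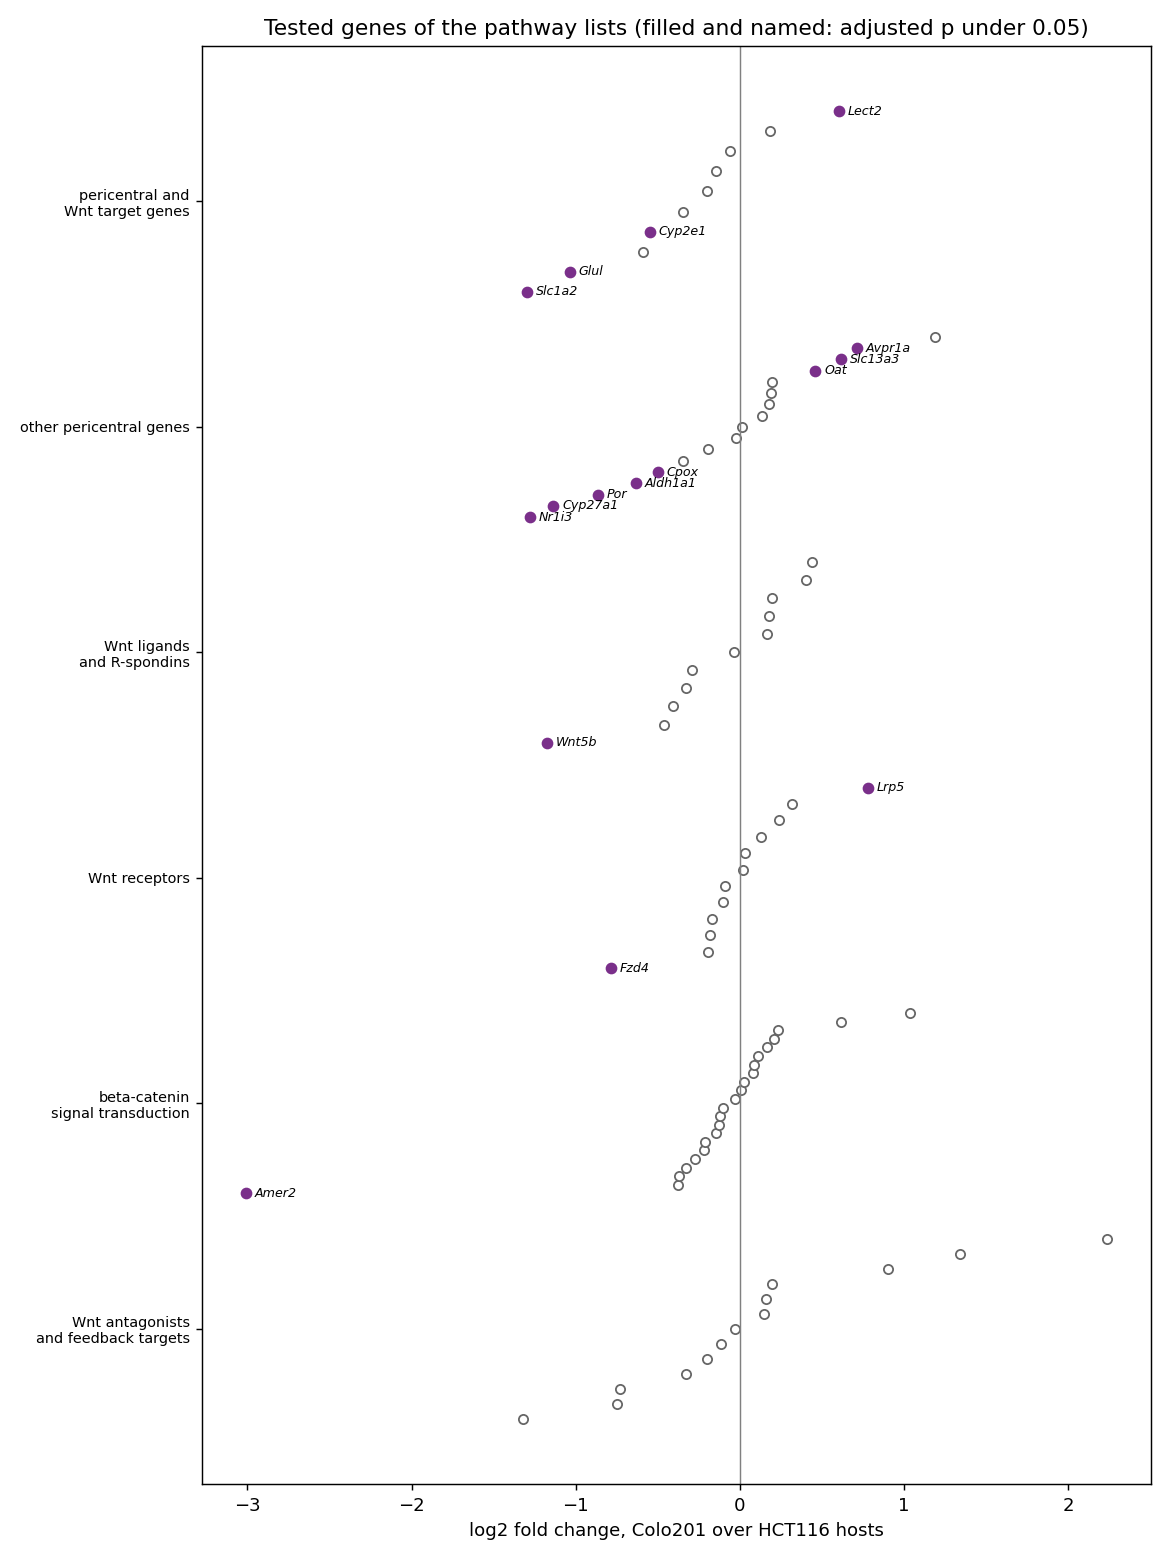
Log2 fold change, Colo201 over HCT116 hosts, of every tested gene of 6 lists: the 10 genes, other pericentral genes, Wnt ligands and R-spondins, receptors, the beta-catenin cascade, and antagonists with feedback targets. Filled and named points have an adjusted p under 0.05 in edgeR; most genes of the pathway lists lie near 0, and the named ones lie on both sides.

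The markers of the cells around the hepatocytes were read beside these results. The 5 central vein endothelium markers were all detected, none passed, and their summed level was 8.35 to 12.4 CPM in Colo201 hosts and 6.05 to 10.6 CPM in HCT116 hosts. All 5 had positive log2 fold changes, with a median of 0.44, at levels of at most 5.15 CPM. None of the 10 liver endothelium markers passed, at a summed level of 222 to 391 CPM in Colo201 hosts and 236 to 398 CPM in HCT116 hosts, nor did any of the 10 Kupffer cell markers, at 215 to 624 CPM in Colo201 hosts and 344 to 544 CPM in HCT116 hosts. The smallest p-values in these 3 lists were those of Thbd (log2 fold change 1.02, adjusted p = 0.0580), Cdh13 (0.44) and Wnt2 in central vein endothelium, Stab2 (-0.27), Eng (0.21) and Lyve1 (-0.28) in liver endothelium, and Clec4f (-0.25), Adgre1 (-0.28) and Vsig4 (-0.23) in Kupffer cells, in edgeR. Of 8 hepatocyte markers Apoa1 (0.47) and Trf (0.51) rose on the log2 scale, where 2.48% of all tested genes rose and 2.30% fell. The other 6 did not pass, among them Hnf4a (-0.16), whose Colo201 libraries lay wholly below. Of 8 stellate cell markers Reln rose (0.89) and 7 did not pass. Hepatocyte markers had 5 positive and 3 negative log2 fold changes, and stellate cell markers 6 and 2. The summed stellate cell level was 245 to 267 CPM in Colo201 hosts and 181 to 281 CPM in HCT116 hosts. Of 8 cholangiocyte markers Krt23 rose (4.13) and 7 did not pass, with 6 log2 fold changes positive and 2 negative. The summed level was 47.2 to 94.0 CPM in Colo201 hosts and 44.4 to 53.5 CPM in HCT116 hosts. This sum includes Krt23 itself, at 18.5 ± 10.8 CPM in Colo201 hosts and 1.13 ± 0.815 CPM in HCT116 hosts (SD, n = 4 each). Spp1 (-0.26) lay wholly below in Colo201 hosts and did not pass. Krt19, named because of its value in 1 library, stood at 25.9 CPM in Colo201 4R and at 0.481 to 2.23 CPM in the other 7. Epcam, named for the same reason, stood at 11.98 CPM in Colo201 4R and at 0.831 to 1.40 CPM in the other 7. Not every cholangiocyte marker did so, since Sox9 was at 2.30 CPM in Colo201 4R and at 1.95 to 3.46 CPM in the other 7. Without Colo201 4R the log2 fold changes were -1.25 for Glul, -1.52 for Slc1a2, -0.56 for Cyp2e1 and 0.63 for Lect2, all still past the threshold in edgeR, with adjusted p of 0.0104, 0.0231, 0.0171 and 0.0189. The part of cell makeup in any of these differences was not tested, and leaving out 1 library does not test it.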

How the data were processed

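Polyadenylated RNA of 8 mouse livers was sequenced with Illumina's stranded TruSeq mRNA kit, per the labels' protocols. The submitters' processing notes name HISAT2, StringTie and the build GRCm38 (mm10), and neither versions nor strand setting are given in the sources used here. Reads of genes that overlap, antisense ones included, may be counted together. The authors deposited a table of estimated counts, whole numbers used as they stand, and a table of FPKM. How counts came from reads is not given, and 44.68% of the values from 1 to 16 were multiples of 4. Symbols matched 55141 of 55401 identifiers.

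CPM were computed from library totals. Counts were filtered with filterByExpr over the 4 combinations of line and sex label, scaled by TMM and fitted with edgeR 4.0.16 (R 4.3.3, glmQLFit and glmQLFTest) on sex label and line, leaving 5 residual degrees of freedom. A fit with a mean per combination gave the contrasts within a label and the interaction. P-values are two-sided, adjusted by Benjamini-Hochberg over 17669 genes, at a threshold of 0.05, and the SE is the size of the log2 fold change over the root of F. On simulated data the fits recovered the set fold changes without clear bias and called only part of the changed genes. A first criterion, on the share of changed genes recovered, was not met. It was replaced by criteria on bias and on the share of false calls, which were met. The simulated libraries were drawn independently, so a likeness of L and R within a title number was not simulated. The text names the 10 genes, of each of the 14 lists every gene that passed or else the 3 with the smallest p, then Wnt2, Wnt9b and Rspo3, and the 5 nearest profiles of Glul and of Lect2. The genes, lists and tests were chosen with earlier results of these data known. Alternatives were other scalings, filters, models, thresholds and tools (DESeq2 1.42.0, limma 3.58.1 on counts or log2 FPKM), and each library left out. Another 4 were added after seeing the data, namely libraries summed by title number, counts divided by 4, and 2 other groupings of the filter. The grouping used was kept because it matches the earlier processing of these files.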

Additional observations from a re-analysis of the deposited data

Results flagged for a closer look

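In 3 of 112 groups of 4 libraries examined, 1 library stood apart from the other 3 by Dixon's criterion at the 95% level, which chance meets in about 1 in 20 groups. Gls2 was at 525 CPM in Colo201 2R, against 409 to 424 CPM in the other 3 Colo201 libraries. Thbd, a marker of central vein endothelium, was at 1.41 CPM in Colo201 4R, against 2.21 to 2.35 CPM in the other 3. Krt19, a marker of cholangiocytes, was at 25.9 CPM in Colo201 4R, against 0.481 to 2.23 CPM in the other 3. Epcam, another marker of cholangiocytes, is not in this count. It was at 11.98 CPM in Colo201 4R, against 0.881 to 1.40 CPM in the other 3. None of the 10 pericentral and Wnt target genes had such a library in either line.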

How the results depend on the processing

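Cyp2e1 and Lect2 kept their calls in all 8 fits without a library, while 1 to 3 of the 10 genes fell and 1 rose. Over the same fits the log2 fold change was -1.25 to -0.91 for Glul, -1.52 to -1.09 for Slc1a2, -0.59 to -0.52 for Cyp2e1, 0.58 to 0.65 for Lect2 and -0.20 to 0.11 for Axin2, whose sign turned without Colo201 2L, HCT116 1R or HCT116 3L, and 86 to 267 genes of all tested were higher and 89 to 283 lower. Without the sex label in the model Glul (-1.06), Slc1a2 (-1.29) and Lect2 (0.62) lost their calls, leaving 1 of the 10 lower and 0 higher, with 88 genes higher and 67 lower in all. With the libraries of each title number summed, which leaves 4 libraries and 1 residual degree of freedom, Glul (-1.05), Slc1a2 (-1.31), Cyp2e1 (-0.55) and Lect2 (0.60) did not pass in edgeR, with 0 genes higher and 0 lower in all, against 1787 and 1732 at an unadjusted p under 0.05, among them 6 of the 10. At an adjusted p under 0.01 Glul (-1.04) and Slc1a2 (-1.30) did not pass, 1 of the 10 was lower, and 41 genes were higher and 51 lower. DESeq2 called Cyp1a2 (-0.35) besides, with 970 genes higher and 1023 lower, and limma on log2 FPKM (pseudocount 1) gave 292 genes higher. With the filter grouped by line alone 457 genes were higher and 464 lower, and with the grouping of the fitted model 456 and 444, with the same numbers of the 10 genes called. The alternative without the 20 most abundant genes left out Cyp2e1 itself. No scaling moved the median of all genes by 0.1 on the log2 scale.

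Contrasts that passed in no fit turned sign when a library was left out, and the cause was not tested. In the libraries labelled Male these were Axin2 (-0.69 to 0.0760) and Tbx3 (-0.34 to 0.20), and in those labelled Female Axin2 (-0.11 to 0.44), Rnf43 (-0.14 to 0.0186) and Znrf3 (-0.48 to 0.26). In the interaction they were Glul (-0.27 to 0.57), Slc1a2 (-0.94 to 0.18), Cyp1a2 (-0.0338 to 0.26), Lgr5 (-0.0598 to 0.50) and Znrf3 (-0.25 to 0.50), and between the sex labels Axin2 (-0.0721 to 0.24), Rnf43 (-0.15 to 0.0875) and Znrf3 (-0.0940 to 0.21). The sex label difference of Lgr5 passed with DESeq2's size factors (0.93) and with a filter of 1 CPM in 4 libraries (0.94). No paired analysis was possible because the lines share no replicate numbers. Lgr5 had the fewest counts of the 10 genes, 80 in its lowest library, so its values are the least precise by counting.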
